A study of Homo sapiens with 4 samples.

Results

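Loops with both ends inside the body of 1 protein-coding gene were examined in HiChIP data of HG00731, a lymphoblastoid cell line (LCL), that is a line of B cells immortalised with Epstein-Barr virus. A loop was counted as enclosed when it lay on chromosomes 1 to 22, spanned more than 30 kb, and had both of its 5 kb anchors wholly within the same protein-coding gene of GENCODE release 44 on hg38. The rule used positions only and no measured value beyond the presence of a loop in a list. In the SMC1-labelled loop list, 1479 of 28012 loops were enclosed. In the CTCF-labelled loop list, 7405 of 80487 loops were enclosed.

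HiChIP joins chromatin ends that lie close together in the nucleus, enriches for a protein with an antibody and sequences the joined fragments, so that it gives both binding peaks and contacts between distant sites. The SMC1 group was fixed with formaldehyde (FA) and ethylene glycol bis(succinimidyl succinate) (EGS), and the CTCF group with FA alone, so that the target and the fixation cannot be told apart. Each group had 2 biological replicates of the same line. The authors analysed each replicate and then the pooled data, and the lists used here are the pooled ones. Each target thus has 1 peak list and 1 loop list, and no spread between replicates can be given. Intervals below are 95% Wilson intervals, or rank intervals for a median, and cover counting error only.

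Each loop list is named here by the target on its label. The peaks in the anchors go against both labels. Loops were called only where at least 1 anchor had a peak of the list's own target. All 7405 enclosed loops and 66333 other loops over 30 kb in the CTCF-labelled list had an SMC1 peak, whereas 727 and 1985 of them had no CTCF peak. All 1479 enclosed and 23672 other loops in the SMC1-labelled list had a CTCF peak, whereas 1 and 4 had no SMC1 peak. The study's supplement also reports 80487 loops for SMC1 and 28012 for CTCF in this line. These are exactly the totals of the CTCF-labelled and the SMC1-labelled list, respectively. Both go with loop lists whose labels are exchanged, so that the CTCF-labelled list would hold SMC1 FA-EGS loops and the SMC1-labelled list CTCF loops. The lists keep the name of their label throughout, and the peak lists are not affected. Loops in 1 gene often shared an anchor, and the 1479 and 7405 enclosed loops fell into 601 and 2522 clusters of neighbouring bin pairs, so that loops are not independent of each other. The read pairs behind the loops summed to 788356 in the whole SMC1-labelled list, of which 35648 lay in enclosed loops, and to 2666327 in the whole CTCF-labelled list, of which 237165 lay in enclosed loops.

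Cohesin is a ring-shaped complex with SMC1 among its core subunits, and it extrudes chromatin into loops until it is halted. CTCF is a zinc finger protein that halts cohesin when its asymmetric DNA motif points towards the inside of the loop, which is why the motifs at both ends of a strong loop are usually convergent. Inside genes, cohesin is also loaded at or moved by sites of active transcription, and intragenic loops can link a promoter with an enhancer in an intron or with an alternative start of the same gene.

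The sequences at several enclosed loops show the kinds of anchors that were found. Each window below was read from hg38 and lies in an intron with no annotated exon of any gene in it. The capitals mark the best match to the CTCF motif within 100 bp of a CTCF summit, and a window on the minus strand is written as its own 5′ to 3′ sequence. The first loop, in SNX9 (a sorting nexin of endocytosis), had motifs that pointed at each other, at chr6:157756793-157756851 on the plus strand and chr6:157873896-157873954 on the minus strand.
SNX9, left anchor: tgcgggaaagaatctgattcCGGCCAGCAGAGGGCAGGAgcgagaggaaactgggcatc
SNX9, right anchor: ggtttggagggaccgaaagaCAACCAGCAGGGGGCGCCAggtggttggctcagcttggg
RALGPS1 (a guanine nucleotide exchange factor for Ral) had a convergent pair too, at chr9:126940759-126940817 on the plus strand and chr9:127199393-127199451 on the minus strand, near the opposite ends of the gene.
RALGPS1, left anchor: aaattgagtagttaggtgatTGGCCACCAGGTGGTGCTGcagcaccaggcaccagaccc
RALGPS1, right anchor: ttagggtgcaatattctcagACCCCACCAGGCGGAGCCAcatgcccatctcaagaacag
In CNTNAP2 (a neurexin-like adhesion protein of neurons) the only enclosed loop joined chr7:147245454-147245512 on the plus strand with chr7:148084215-148084273 on the minus strand.
CNTNAP2, left anchor: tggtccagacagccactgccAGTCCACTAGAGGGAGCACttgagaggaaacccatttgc
CNTNAP2, right anchor: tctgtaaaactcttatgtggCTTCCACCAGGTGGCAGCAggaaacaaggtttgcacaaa
A loop of SMG6 (an endonuclease of nonsense-mediated decay) is shown because both of its motifs lay on the minus strand, at chr17:2070818-2070876 and chr17:2244918-2244976, and so pointed the same way, along the strand of the gene.
SMG6, left anchor: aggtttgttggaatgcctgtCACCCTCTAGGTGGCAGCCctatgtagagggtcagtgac
SMG6, right anchor: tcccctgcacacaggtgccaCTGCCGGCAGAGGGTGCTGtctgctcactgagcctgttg

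A different kind of anchor had an SMC1 peak and no CTCF peak. The strongest loops with this arrangement at both ends include 1 in ENTPD1 (CD39, which hydrolyses extracellular ATP), and the windows below centre on SMC1 summits of its anchors at chr10:95785525-95785585 and chr10:95832211-95832271 on the plus strand. Here the capitals mark the recognition site of DpnII, the enzyme with which the authors cut the chromatin, where it lies within 10 bp of the summit. The left window held no such site next to the summit, and the right window did.
ENTPD1, left anchor: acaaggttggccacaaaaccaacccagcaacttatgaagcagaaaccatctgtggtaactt
ENTPD1, right anchor: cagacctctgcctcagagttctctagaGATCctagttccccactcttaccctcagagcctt

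The first comparison asked how often loops are enclosed in a gene, given how much of the genome genes cover. Among loops over 30 kb on chromosomes 1 to 22, 1479 of 25151 loops in the SMC1-labelled list were enclosed, which is 5.88% (5.60 to 6.18). In the CTCF-labelled list the share was 10.04% (9.83 to 10.3), or 7405 of 73738. By geometry alone, 5.88% of all pairs of 5 kb bins over 30 kb and up to 1 Mb apart lie in 1 coding gene, and 4.3% of the pairs that have an SMC1 peak at 1 bin or both. These figures for all pairs are dominated by long distances, whereas the loops were mostly short, so the shares have to be read within classes of span.

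Within every class of span, a smaller share of loops than of bin pairs was enclosed. Between 35 and 60 kb, 25.8% of all bin pairs were enclosed, against 12.4% (n = 385) of the loops labelled SMC1 and 18.8% (n = 2037) of the loops labelled CTCF. Between 105 and 200 kb, 13.4% of the pairs were enclosed, against 5.25% and 9.16% of the loops, respectively. Between 405 and 1000 kb it was 2.26% of the pairs, against 0.770% (n = 13) and 1.80% (n = 109) of the loops. The CTCF-labelled list was thus closer to the geometry than the SMC1-labelled list in each class. Pairs with an SMC1 peak at 1 bin or both give another order for long spans in the CTCF-labelled list, and not in the SMC1-labelled list. Of these, 27.5% were enclosed in the shortest class, but 4.59% between 205 and 400 kb and 1.01% above, where the share of loops labelled CTCF was 4.69% and 1.80% and that of loops labelled SMC1 was 2.72% and 0.770%.

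The same numbers can be put as a density. The shortest class held 433 loops labelled SMC1 per 1000000 enclosed pairs and 1065 per 1000000 pairs not enclosed in a gene. For the loops labelled CTCF these densities were 2292 and 3428. In the longest class they were 8.39 and 24.99 for the SMC1-labelled list and 70.4 and 88.5 for the CTCF-labelled list.

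**Figure D1:**
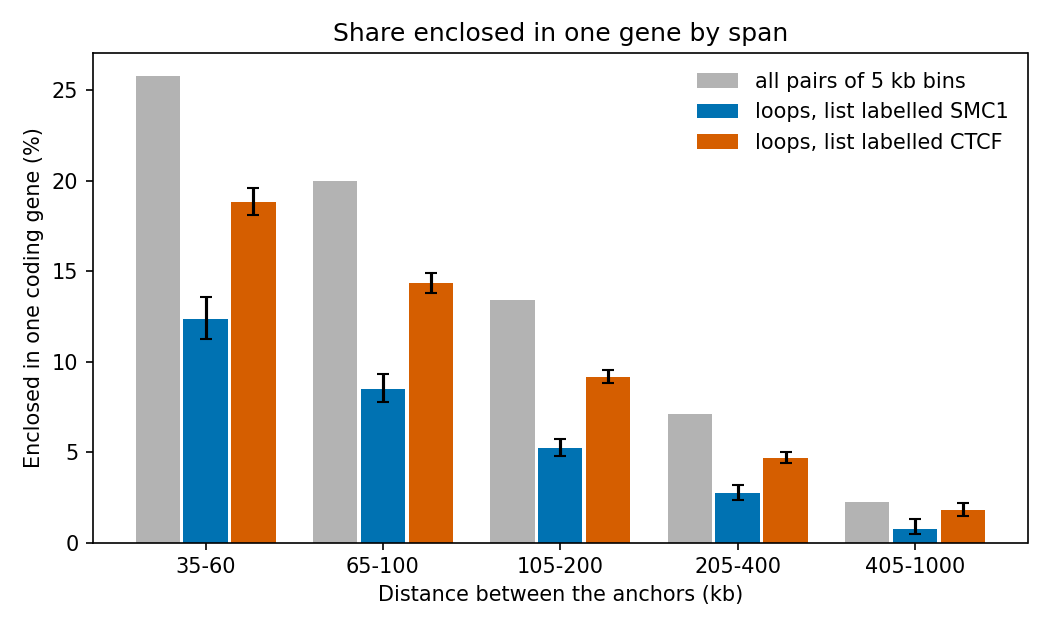
Share enclosed in 1 coding gene (%) by distance between the anchors (kb), for all pairs of 5 kb bins (grey) and for the loops of each list (blue, labelled SMC1, and orange, labelled CTCF), with 95% Wilson intervals on the loops. In each of the 5 classes the grey bar is the highest and the blue bar the lowest, from 25.8%, 18.8% and 12.4% between 35 and 60 kb down to 2.26%, 1.80% and 0.770% between 405 and 1000 kb.

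Enclosed loops were shorter than other loops, and weaker relative to the expected count. They spanned a median of 95 kb (SMC1-labelled) and 90 kb (CTCF-labelled), against 145 kb for the other loops of either list. The ratio of observed to expected read pairs, where the expected number is that of the MAPS regression, had a median of 3.95 (3.86 to 4.03) in enclosed loops labelled SMC1 against 4.22 (4.19 to 4.24) in the others, and of 3.41 (3.38 to 3.45) against 4.32 (4.30 to 4.34) in the CTCF-labelled list. This ratio rises with span in both kinds of loop, and within classes of span the lower value of enclosed loops did not hold in the SMC1-labelled list. There the medians between 65 and 100 kb were 3.70 for enclosed and 3.47 for other loops. In the CTCF-labelled list they were 3.22 and 3.54 in the same class, but 8.04 and 7.30 in the class from 405 kb. Median read pairs were 20 in both kinds of loop labelled SMC1, and 24 in enclosed against 22 in other loops labelled CTCF.

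The enclosed loops lay in 471 genes in the SMC1-labelled list and in 1402 genes in the CTCF-labelled list. Of 19111 protein-coding genes on these chromosomes, 7366 were long enough to hold a pair of bins over 30 kb apart, so that 6.39% (5.86 to 6.98) and 19% (18.2 to 19.9) of the genes that could hold a loop had one. Both lists shared 446 of these genes, that is 94.7% of the 471 and 31.8% of the 1402. Read-through genes, which GENCODE annotates where transcripts join neighbouring genes, made up 34 and 82 of the genes. A few loops, 33 and 179, lay in more than 1 coding gene, since gene bodies can overlap.

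Genes with an enclosed loop were long. Their median length was 184 kb (173 to 204) in the SMC1-labelled list and 175 kb (167 to 183) in the CTCF-labelled list, against 95.03 kb for all genes long enough and 27.9 kb for all coding genes. The share of genes with a loop rose with length up to a class of 400 to 800 kb. In the CTCF-labelled list it was 2.72% of 1763 genes of up to 60 kb, 11.1% from 60 to 100 kb, 25.1% from 100 to 200 kb, 38.1% from 200 to 400 kb, 49.5% from 400 to 800 kb and 48.4% of the 122 genes over 800 kb. In the SMC1-labelled list the shares in the same order were 1.02%, 3.67%, 7.59%, 14.1%, 18.6% and 13.9%.

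Relative to the number of bin pairs a gene offers, the order was the reverse. Genes of up to 60 kb had 9.92 loops labelled CTCF per 1000 possible pairs, genes from 200 to 400 kb had 2.35, and genes over 800 kb had 0.158. In the SMC1-labelled list these values were 3.45, 0.421 and 0.0146. Loop density per bin pair also fell with distance beyond 100 kb, in genes and elsewhere, and its part in these values was not tested. Across the 7366 genes, the number of loops and gene length had a Spearman rho of 0.206 and 0.380 in the respective lists, given as a description since overlapping genes share loops.

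**Figure D2:**
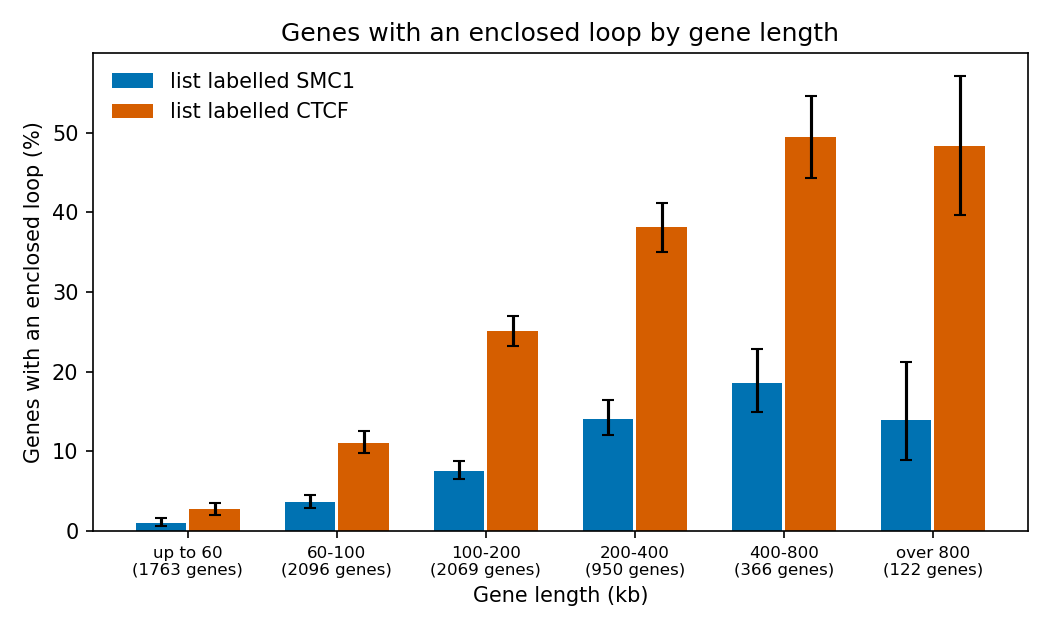
Share of genes with at least 1 enclosed loop (%) by gene length (kb), among coding genes long enough to hold a loop, for the SMC1-labelled list (blue) and the CTCF-labelled list (orange), with 95% Wilson intervals. The orange bars rise from 2.72% of genes up to 60 kb to 49.5% of genes from 400 to 800 kb, and the blue bars from 1.02% to 18.6%, and in genes over 800 kb neither is higher.

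Most genes held few loops and a few genes held many. The median was 2 loops per gene in the SMC1-labelled list and 3 in the CTCF-labelled list, and 177 of 471 and 366 of 1402 genes held exactly 1. At least 10 loops were found in 25 and 232 genes. The 47 and 140 genes with the most loops, 1 in 10 of each set, held 35.6% and 39.4% of all assignments of loops to genes.

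PALM2AKAP2, which encodes an anchoring protein of protein kinase A, held the most loops labelled CTCF. In this gene of 674 kb at chr9:109498325-110172512 there were 73 loops labelled CTCF in 9 clusters and 17 labelled SMC1 in 5 clusters, among 43 SMC1 and 25 CTCF peaks. HIVEP3, a zinc finger transcription factor gene of 530 kb at chr1:41506365-42035925, followed with 67 and 18 loops and many peaks, 67 of SMC1 and 35 of CTCF. RALGPS1, at chr9:126914774-127223166, held 47 and 21 loops within 308 kb. SNX9 held 46 loops labelled CTCF and 15 labelled SMC1, which used 26 and 15 distinct anchors. Its 245 kb at chr6:157700387-157945077 had 17 SMC1 and 9 CTCF peaks. GSE1, a component of histone deacetylase complexes, led the SMC1-labelled list with 25 loops and held 35 labelled CTCF.

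The ranks differed between the lists for some genes. ESR2, the gene of oestrogen receptor beta, held 38 loops labelled CTCF and 20 labelled SMC1, and its 254 kb body overlaps a neighbouring gene. MGAT5, an enzyme of N-glycan branching, held 37 loops labelled CTCF and 3 labelled SMC1. LIMD1 (a LIM domain protein of the Hippo pathway) was the reverse, with 15 loops labelled SMC1 and 6 labelled CTCF, although the CTCF-labelled list was several times larger. With 1 pooled list per label, none of these differences can be tested.

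Many loops met at a shared anchor. Of the 1886 distinct anchors labelled SMC1, 76 had at least 5 enclosed partners, and 1 had 17. Among the 7910 labelled CTCF it was 514, with up to 29 partners. A few loops framed a whole gene and so fall outside the rule: 81 loops labelled SMC1 and 250 labelled CTCF joined the bins that hold the ends of 1 gene, with a median span of 70 and 80 kb and SMC1 peaks in both anchors of 80.2% and 78.8% of them.

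Single loops show the range of strength. The enclosed loop with the most read pairs in the SMC1-labelled list lay in DUS2, a tRNA dihydrouridine synthase, between chr16:67990001-67995000, which holds a start of the gene, and chr16:68040001-68045000. It had 157 read pairs there and 297 in the CTCF-labelled list, at 3.78 and 6.77 times the expected number. Its SMC1 peaks had a −log10 q-value of 470 on the left and 263 on the right, and its CTCF peaks of 301 and 196, all far above the medians of enclosed anchors given below.
In LDLRAD4, an inhibitor of TGF-beta signalling, the loop from chr18:13555001-13560000 to chr18:13630001-13635000 had 139 read pairs in the SMC1-labelled list and 386 in the CTCF-labelled list, at 9.62 and 8.47 times the expected number. The RALGPS1 loop shown above spanned 255 kb, from 8.99% to 91.7% of the gene, with 83 and 244 read pairs. Its ratios of 13.4 and 15.8 were far above the medians for enclosed loops. The enclosed loop with the most read pairs in the CTCF-labelled list lay in FBXO16, an F-box gene, with 502 read pairs over 55 kb and 7.27 times the expected number, and had 87 read pairs in the SMC1-labelled list. VMP1, a membrane protein of autophagy, differed more between the lists, with 410 read pairs in the CTCF-labelled list and 28 in the other, over 40 kb.

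The longest enclosed loop spanned 900 kb of MACROD2 (an ADP-ribose hydrolase) and had 24 read pairs in the CTCF-labelled list, 13.6 times the expected number. It was followed by loops of 895 kb in LRRC4C (a synaptic ligand of netrin-G) and again in MACROD2, with 13 and 12 read pairs. Then came a loop of 835 kb in CNTNAP2, shown above, and a loop of 820 kb in RARB (a retinoic acid receptor), with 13 and 12. The loops after the longest rest on counts close to the lowest in the lists, which is 12 read pairs. None of them had a partner at the same bins in the SMC1-labelled list. The longest loop labelled SMC1 spanned 525 kb of KIAA1217, with 25 read pairs there and 32 in the CTCF-labelled list. Next came 515 kb of RUNX1 (a transcription factor of blood cells), with 14 and 22.

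Very long genes did hold loops. The longest with a loop labelled SMC1 was PDE4D, a cAMP phosphodiesterase gene of 1553 kb, with 1 such loop and 25 labelled CTCF. AGBL4 (a deglutamylase of tubulin) held 6 and 22 loops in 1491 kb, and TENM2 (a teneurin of synapse formation) held 5 and 6 in 1285 kb.

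Several of the longest genes had no enclosed loop. RBFOX1, a neuronal splicing factor gene of 2474 kb, had none in either list and held 8 SMC1 and 16 CTCF peaks. None was found either in CSMD1, LRP1B, PCDH15 or ROBO2, which run from 1743 to 2060 kb and held between 6 and 9 SMC1 peaks and between 7 and 10 CTCF peaks each. PTPRD, a receptor phosphatase gene of 2299 kb with 16 and 13 peaks, held 4 loops labelled CTCF. These long genes without a loop had few peaks for their length, yet CNTNAP2, at 2305 kb, had a loop with only 3 SMC1 and 5 CTCF peaks.

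Next, the anchors were compared with the transcript starts of the gene itself. Exactly 1 anchor held a start in 480 enclosed loops labelled SMC1, which is 32.5% (30.1 to 34.9), and in 2083 labelled CTCF, which is 28.1% (27.1 to 29.2). Both anchors held one in 70 (4.73%) and 286 (3.86%) loops. In most loops under this rule, 929 (62.8%) and 5036 (68.0%), neither did. Where anchors had only to overlap the gene, exactly 1 held a start in 50.6% and 44.2% of loops. Counting protein-coding transcripts only, it was 20.6% and 18.5% of the enclosed loops. Since a bin over the outermost 5′ end is mostly not wholly inside the gene, the rule leaves out loops from the main promoter: 857 and 3065 loops joined the bin with the outermost 5′ end of a gene to a bin inside it, in 326 and 1077 genes. By contrast, 173 and 520 joined the bin with the 3′ end to a bin inside.

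Starts were more frequent at anchors than the layout of the genes gives. Of all bins inside the genes with a loop, 10.3% (SMC1-labelled list) and 9.12% (CTCF-labelled list) held a start of the gene, against 18.2% (16.6 to 20.05) of the 1886 and 16.1% (15.3 to 16.9) of the 7910 distinct anchors. Placing each loop at every position its gene allows, with its span kept, would give exactly 1 anchor with a start in 24.1% and 21.2% of loops. Exons showed the same order. An exon of the gene lay in 28.5% and 27.1% of all bins and in 40.9% and 37.0% of the distinct anchors. Counted over both anchors of every loop, it lay in 42.9% and 38.4%, against 37.1% and 33.7% with each loop placed at every position its gene allows, which is a smaller gap. Where 1 anchor held a start, it was the anchor nearer to the 5′ end of the gene in 43.1% (38.8 to 47.6) and 46.6% (44.5 to 48.8) of loops.

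LMNA, the gene of the nuclear lamins A and C, had the strongest loop with a start at both anchors. It joined chr1:156090001-156095000 and chr1:156130001-156135000, 40 kb apart in a gene of 57.5 kb, with 114 read pairs in the SMC1-labelled list and 317 in the CTCF-labelled list. Its left anchor carried a motif match of 23.3 bits, shown for its closeness to the consensus below, at chr1:156090858-156090916 in an intron.
LMNA, left anchor: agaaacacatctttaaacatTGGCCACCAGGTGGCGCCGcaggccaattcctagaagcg
In BCL2, the survival gene, a loop of 160 kb joined chr18:63155001-63160000, at 82.6% of the gene, with chr18:63315001-63320000 at its 5′ end, with 67 and 184 read pairs and a start in each anchor. SMG6, at chr17:2059839-2303785, had the most loops of this kind, 15 in the CTCF-labelled list, out of 45 enclosed loops. Its loop of 175 kb had 42 read pairs in the SMC1-labelled list and 47 in the other, and the loop shown above, of 170 kb, had 15 and 60.

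Along the gene, anchors gathered at the 5′ end beyond what the geometry gives. The rule itself favours both ends, since a long loop can only lie with its anchors apart, and the positions that the genes allow were counted for comparison. The gene was cut into 10 equal parts, and each anchor was counted once for every loop it ends, giving 2958 and 14810 counts. The part at the 5′ end held 15.4% of the counts in the SMC1-labelled list and 14.8% in the CTCF-labelled list. Of the allowed positions it held 12.3% and 10.9%. The next part held fewer than allowed, 9.60% against 11.8% and 9.17% against 10.9%. Near the 3′ end, part 9 held 13.5% against 11.8% in the SMC1-labelled list, and 11.5% against 11.03% in the CTCF-labelled list. With each anchor counted once, part 1 held 14.9% and 14.0%, part 2 held 9.98% and 9.79%, and part 9 held 11.6% and 10.9%. The higher share in part 9 thus rests on anchors shared by several loops. The allowed positions were counted by loop and are no exact baseline for distinct anchors. Outer anchor ends enclosed a median of 51.7% of the gene's length in the SMC1-labelled list and 44.3% in the CTCF-labelled list.

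**Figure D3:**
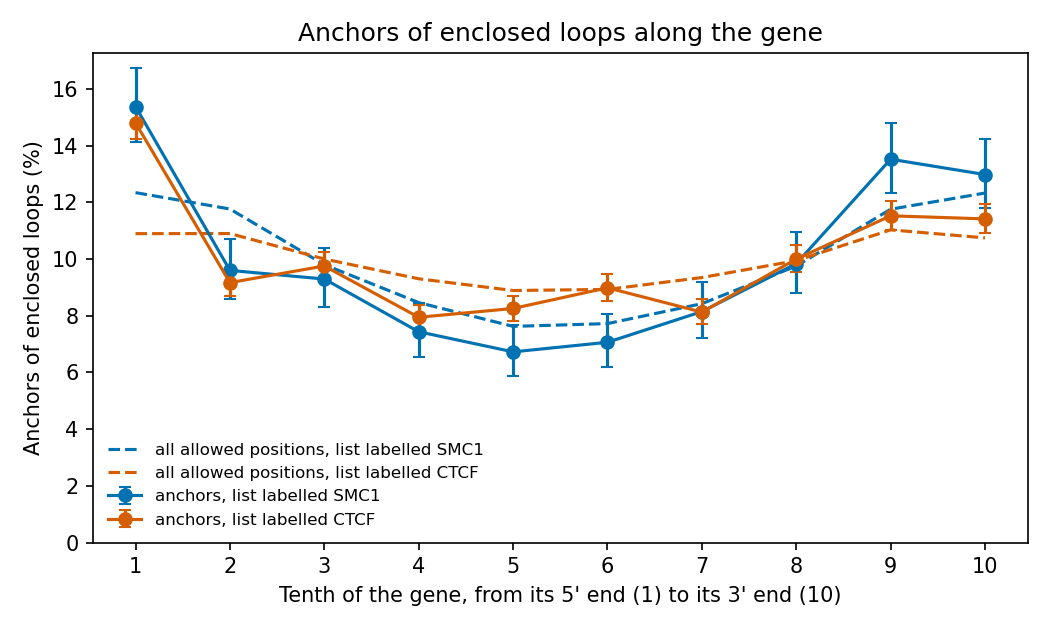
Share of the anchors of enclosed loops (%) in each of 10 equal parts of the gene, from its 5′ end (1) to its 3′ end (10), for the SMC1-labelled list (blue) and the CTCF-labelled list (orange), with 95% Wilson intervals. An anchor was counted once for every loop it ends, and the intervals treat these counts as independent. Dashed lines give the share of all positions that the genes allow for loops of the same span. The points lie above the dashed lines in part 1, at 15.4% and 14.8% against 12.3% and 10.9%, and below them in part 2.

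Peaks of both targets were then counted at the anchors. Since the authors called loops only where at least 1 anchor had a HiChIP peak, a high share of anchors with a peak is part of how the lists were made, and the comparison of interest is between enclosed and other loops. In the SMC1-labelled list, 71.9% of enclosed loops had SMC1 peaks in both anchors (69.5 to 74.1), against 67.8% of the other loops (67.2 to 68.4). In the CTCF-labelled list this was 73.8% (72.8 to 74.8) against 70.8% (70.5 to 71.2). With the other loops weighted to the spans of the enclosed loops their shares were 67.4% and 69.7%. The share was higher in enclosed loops on 17 of 22 chromosomes in the SMC1-labelled list and on 20 of 22 in the CTCF-labelled list. Without peaks whose summit lay at a DpnII site, the intervals of enclosed and other loops overlapped in both lists, as given below.

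CTCF peaks were the reverse in the CTCF-labelled list. There 38.3% of enclosed loops (37.2 to 39.4) had CTCF peaks in both anchors, against 50.1% of the other loops (49.7 to 50.4) or 46.3% at the same spans, and the share was lower in enclosed loops on all 22 chromosomes. In the SMC1-labelled list the shares were 56.6% (54.1 to 59.1) and 58.4% (57.7 to 59.0), and the share was higher in enclosed loops on 10 of 22 chromosomes. The difference in the CTCF-labelled list was largest in short loops, with 30.4% against 43.4% between 35 and 60 kb. It was not seen in long ones, with 55.5% against 55.9% between 205 and 400 kb and 79.8% against 69.0% above.

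Enclosed loops without any CTCF peak numbered 727 in the CTCF-labelled list (9.82%, 9.16 to 10.5), against 2.99% of its other loops. Every enclosed or other loop in the SMC1-labelled list had a CTCF peak in an anchor. If the labels are exchanged this follows from how the list was called, so no contrast between the lists is drawn here. Both anchors with SMC1 and neither with CTCF were seen in 527 enclosed loops, which is 7.12% (6.55 to 7.73), against 1.958% (1.86 to 2.07) of the other loops in the CTCF-labelled list and 2.63% at the same spans. Here the share was higher in enclosed loops on all 22 chromosomes.

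Enclosed loops labelled CTCF with a CTCF peak at neither anchor had a median span of 65 kb and a ratio of 2.98 (2.92 to 3.08), those with a CTCF peak at 1 anchor 90 kb and 3.36 (3.31 to 3.40), and those with CTCF peaks at both 105 kb and 3.74 (3.65 to 3.81). Among loops labelled SMC1, all of which had a CTCF peak, the ratio was 4.10 (3.96 to 4.23) with a CTCF peak at 1 anchor. It was 3.80 (3.65 to 3.93) with CTCF peaks at both, and the lists are not contrasted here either. Spans differ between these classes and the ratio rises with span, so these ratios are not compared at a matched span: all enclosed loops labelled CTCF had a median ratio of 2.77 between 35 and 60 kb and of 3.22 between 65 and 100 kb. An own start lay in at least 1 anchor of 27.8% (24.7 to 31.1) of the loops labelled CTCF without a CTCF peak, and of 31.5% (29.8 to 33.2) of those with CTCF peaks at both anchors.

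The strongest of the loops with SMC1 alone lay in POU2AF1, which encodes the B cell coactivator OBF-1. It joined chr11:111365001-111370000 and chr11:111415001-111420000 with 237 read pairs, 3.45 times the expected number, over SMC1 peaks with a −log10 q-value of 38.1 and 115. Shifting the left anchor by 1 bin gave another loop of the kind, with 185 read pairs. AUTS2, a regulator of neuronal development that contains internal promoters, had such a loop with 161 read pairs over 35 kb, with a start in both anchors, at 94.5% and 97.4% of its length. A loop in PPCDC, an enzyme of coenzyme A synthesis, had 156 read pairs over 65 kb, and the loop in ENTPD1 shown above had 119 over 45 kb. RAD51B, a gene of recombination repair, held 25 loops labelled CTCF and none labelled SMC1, of which 5 had no CTCF peak. Its strongest had 44 read pairs over 90 kb.

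Peaks at enclosed anchors were stronger than the other peaks of the same genes. Loops were called only where at least 1 anchor had a peak, so peaks at anchors are not independent of the calls. The median −log10 q-value of SMC1 peaks was 42.6 (38.1 to 47.5) at anchors labelled SMC1 against 9.79 (9.46 to 10.1) elsewhere in the genes, and 23.8 (22.7 to 24.98) against 8.11 (7.92 to 8.28) for the CTCF-labelled list. For CTCF peaks these medians were 60.8 (55.4 to 69.0) against 10.7 (9.93 to 11.6), and 36.04 (33.4 to 38.6) against 10.1 (9.56 to 10.5). An SMC1 peak lay in 30.6% and 26.4% of all bins inside the genes with a loop, and in 78.9% and 78.8% of the distinct anchors. A CTCF peak lay in 17.5% and 14.3% of the bins, and in 67.7% and 52.7% of the anchors. Counted over both anchors of every loop, an SMC1 peak lay in 85.9% and 86.9%, and a CTCF peak in 78.3% and 64.2%. With each loop placed at every position its gene allows, these shares would be 43.7% and 40.3%, and 27.2% and 22.1%. Anchors with an SMC1 peak and no CTCF peak made up 14.5% of the anchors labelled SMC1 and 27.8% of those labelled CTCF, against 16.2% and 12.9% of the bins that were no anchor.

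The position of the summits bears on these counts. DpnII cuts chromatin at GATC, a palindrome that reads alike on both strands. Within 10 bp of an SMC1 summit a GATC was found for 32.4% of all SMC1 peaks, against 4.29% at positions 500 bp away, and for CTCF summits these shares were 11.4% and 4.10%. At the enclosed anchors labelled CTCF, 39.2% (37.5 to 40.8) of the SMC1 summits without an overlapping CTCF peak lay at a GATC, against 26.5% (25.1 to 27.9) of those with one. At the anchors labelled SMC1 the shares were 45.5% (41.5 to 49.6) and 25.4% (22.96 to 27.9). At the anchors of the loops with SMC1 at both ends and CTCF at neither, 359 of 934 SMC1 summits (38.4%, 35.4 to 41.6) did, against 4.07% at 500 bp.

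Of these shares, 3 were recounted without the peaks whose summit lay at a GATC. SMC1 peaks in both anchors then fell to 43.5% (42.3 to 44.6) of enclosed and 42.9% (42.5 to 43.2) of other loops labelled CTCF. Among loops labelled SMC1 these shares were 43.9% (41.4 to 46.4) and 41.03% (40.4 to 41.7). The intervals of enclosed and other loops thus overlapped in both lists. The lower share with CTCF peaks at both anchors in the CTCF-labelled list remained, at 33.0% (31.9 to 34.1) against 44.3% (43.9 to 44.7). SMC1 at both anchors and CTCF at neither was left in 272 enclosed loops, 3.67% (3.27 to 4.13), against 0.891% (0.822 to 0.965) of the others. The part of the cutting sites in the loops themselves was not tested.

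**Figure D4:**
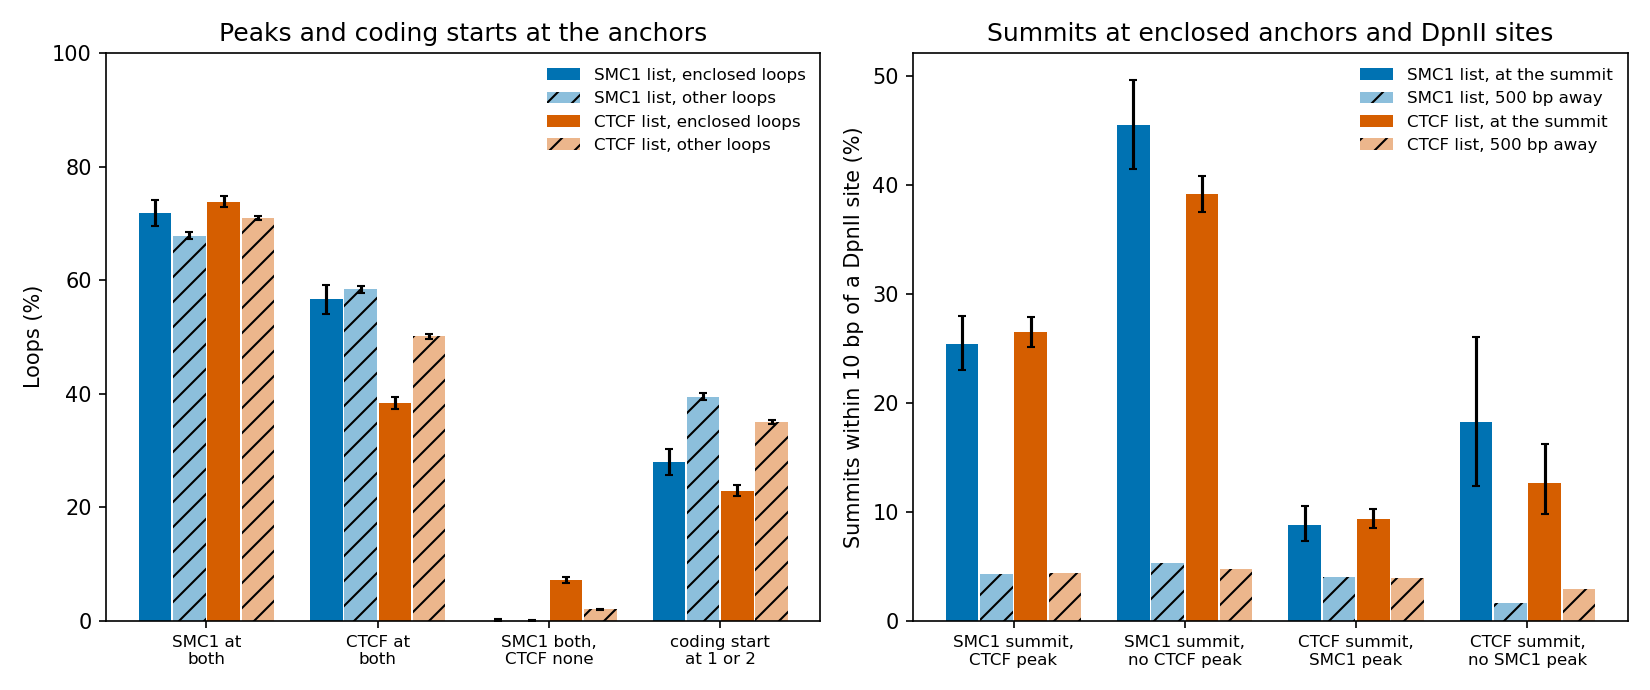
Left, share of loops (%) with SMC1 peaks at both anchors, CTCF peaks at both, SMC1 at both with CTCF at neither, and a coding start in 1 or 2 anchors, for enclosed loops (plain) and other loops over 30 kb (hatched) of the SMC1-labelled list (blue) and CTCF (orange), with 95% Wilson intervals. Right, share of peak summits in enclosed anchors (%) that lie within 10 bp of a DpnII site, at the summit (plain) and 500 bp away (hatched), by whether the peak overlaps a peak of the other target. CTCF at both anchors is lower in enclosed loops in orange, 38.3% against 50.1%, and SMC1 summits without CTCF lie at a DpnII site most often, at 45.5% and 39.2%.

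Starts of any coding gene, which include starts of other genes within or beside the enclosing gene, were rarer at enclosed loops. At least 1 anchor held one in 27.9% (25.7 to 30.3) of enclosed loops labelled SMC1 and 22.9% (21.96 to 23.9) of those labelled CTCF, against 39.4% (38.8 to 40.1) and 34.9% (34.6 to 35.3) of the other loops. At the same spans the other loops had 42.9% and 39.9%. The rule contributes to this, since bins that reach across the end of a gene cannot be members.

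The direction of the CTCF motif was read from a motif of 19 bp, tggccaccagggggcgcca by its most frequent bases, learned from the sequences within 100 bp of the 3000 CTCF summits with the highest −log10 q-value. It holds 15.4 bits, and both strands were scored. A match of at least 7 bits is common in 5 kb of sequence. It occurred in 91.9% and 87.8% of the distinct anchors and in 79.8% and 76.5% of all bins of the genes. For at least 13 bits the shares were 37.9% and 28.1% of the anchors, against 12.4% and 10.8% of the bins.

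Motifs at both ends of an enclosed loop pointed at each other more often the stricter the match. With the best match of at least 7 bits anywhere in each anchor, 659 of 1312 enclosed loops labelled SMC1 (50.2%, 47.5 to 52.9) and 2733 of 6082 labelled CTCF (44.9%, 43.7 to 46.2) were convergent, against 51.3% and 50.4% of other loops. With at least 13 bits it was 185 of 266 (69.5%, 63.8 to 74.8) and 615 of 900 (68.3%, 65.2 to 71.3), against 66.1% and 67.1%. Near CTCF summits only, with at least 7 bits, it was 127 of 200 (63.5%, 56.6 to 69.9) and 307 of 506 (60.7%, 56.4 to 64.8), against 59.4% and 60.6%. Enclosed loops labelled CTCF were convergent less often than other loops only under the loose match, and with strict matches or matches at summits the intervals include the values of the other loops.

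Among the 506 enclosed loops labelled CTCF with motifs near summits at both ends, the median ratio of observed to expected pairs was 5.17 in convergent, 3.79 in same-direction and 2.89 in divergent pairs, the last over 26 loops. Loops labelled SMC1 had medians of 4.17, 3.46 and 3.62 in that order, the last over 7 loops. The median spans did not follow this order, at 110, 120 and 95 kb in the CTCF-labelled list. Relative to transcription, the motif lay on the strand of the gene at 269 of 612 anchors labelled SMC1 (43.95%, 40.1 to 47.9) and 776 of 1681 labelled CTCF (46.2%, 43.8 to 48.6). Among pairs in the same direction, as in SMG6, it was 26 of 66 and 86 of 173.

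When loops were matched between the lists with up to 15 kb allowed at either end, 95.6% (94.4 to 96.5) of enclosed loops labelled SMC1 were found in the CTCF-labelled list, and 95.2% (94.9 to 95.4) of the other loops were. In the opposite direction it was 40.9% (39.8 to 42.0) of enclosed loops labelled CTCF against 56.4% (56.1 to 56.8) of the others. The same bins were called in both lists for 1086 enclosed loops. The CTCF-labelled list is the larger, so shares in the 2 directions are not comparable.

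Finally, loops were counted in lists of genes by role. B cell genes were counted because the line is of B cell origin, and 35 of 46 listed genes were on these chromosomes and long enough. Of these, 14 (40%) had a loop labelled SMC1 and 22 (62.9%) a loop labelled CTCF, beside 6.39% and 19% of all genes long enough. Their median length was 183 kb, longer than the 95.03 kb of all genes long enough. Per 1000 possible pairs they held 0.740 and 2.31 loops, beside 0.229 and 1.15 over all, values that are not matched for length. All genes from 100 to 200 kb had 1.12 and 4.91, and those from 200 to 400 kb had 0.421 and 2.35. The listed genes run up to 1217 kb. The B cell genes also held more peaks, 8.50 SMC1 and 3.81 CTCF peaks per 100 kb, beside 4.19 and 2.48 over all. The part of length and peaks in their loops was not tested. No expression was measured, so only peaks can be set against the cell type: PAX5 and EBF1, which specify B cells, held 35 and 60 SMC1 peaks, whereas the T cell genes BCL11B and THEMIS held 2 and 0.

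PRKCB, the kinase that couples the B cell receptor to NF-kappaB, held the most loops labelled CTCF of the list, 24, and 6 labelled SMC1, fewer than the 8 of POU2AF1 and the 7 of PLCG2. Its strongest loop spanned 135 kb, with 117 read pairs in the CTCF-labelled list and 29 in the other, over the convergent motifs at chr16:23877291-23877349 on the plus strand and chr16:24010628-24010686 on the minus strand.
PRKCB, left anchor: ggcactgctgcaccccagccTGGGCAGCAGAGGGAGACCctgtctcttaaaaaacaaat
PRKCB, right anchor: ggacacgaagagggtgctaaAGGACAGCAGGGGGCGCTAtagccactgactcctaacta
EBF1 held 15 loops labelled CTCF and none labelled SMC1. In 14 of the 15 both anchors had an SMC1 peak, and in 3 both had a CTCF peak. RUNX1 and TCF4 (a basic helix-loop-helix factor) each held 13 labelled CTCF and 1 labelled SMC1. The octamer factor POU2F1 held 11 and 5 loops, POU2F2 held 9 and 4, and their coactivator POU2AF1 held 9 and 8. ETV6, an ETS family repressor, held 9 loops labelled CTCF, and each had a start of the gene in exactly 1 anchor.

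PAX5 held 5 loops labelled CTCF, BACH2, IKZF1 and ETS1 held 1 each, and none of these 4 transcription factor genes had a loop labelled SMC1. PLCG2 and LYN, an enzyme and a kinase of B cell receptor signalling, had more loops labelled SMC1 (7 and 5) than CTCF (5 and 4). DOCK8, an activator of small GTPases in lymphocytes, held 8 and 4 loops, and of the 8 labelled CTCF, 7 had a start in exactly 1 anchor and 1 in both. BLK, a B lymphoid kinase, held 6 and 2 loops, the strongest with 207 and 21 read pairs. RUNX3 and IKZF3 had loops labelled SMC1 alone, 2 and 1. In 11 listed genes neither list had a loop, among them FOXP1 with 45 SMC1 peaks over 629 kb and PTPRC, which encodes CD45, with 3 over 119 kb. A gene rich in peaks was thus not always one with a loop.

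T cell genes were fewer, with 11 long enough, of which 1 (9.09%) had a loop labelled SMC1 and 4 (36.4%) a loop labelled CTCF, beside 6.39% and 19% of all genes long enough. Their median length was 121 kb, beside 95.03 kb. Per 1000 possible pairs they held fewer loops than all genes long enough, 0.0611 and 1.04 beside 0.229 and 1.15, again not matched for length. CAMK4, a calcium-dependent kinase, held 2 loops labelled CTCF and none labelled SMC1, the stronger with 77 read pairs over 50 kb. INPP4B, a lipid phosphatase, had a loop of 490 kb with 28 read pairs labelled CTCF.

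Very long genes of common fragile sites, which are prone to breaks under replication stress, numbered 20. Of these, 1 (5%) had a loop labelled SMC1 and 12 (60%) had loops labelled CTCF, at 0.00298 and 0.122 loops per 1000 pairs and 1.47 SMC1 peaks per 100 kb. Of all genes over 800 kb, 13.9% and 48.4% had such loops, and of all genes long enough 6.39% and 19%. RAD51B with 25, AUTS2 with 16 and WWOX with 9 loops labelled CTCF held the most, and AUTS2 alone held loops labelled SMC1, 2 in number. FHIT and LRP1B held none, with 15 and 7 SMC1 peaks. Among 20 neuronal adhesion and synapse genes, 0 had a loop labelled SMC1 and 6 (30%) a loop labelled CTCF, at 0.0272 loops per 1000 pairs, with 0.858 SMC1 peaks per 100 kb. NRXN3 (a presynaptic neurexin) held 5 of their 14 loops, the strongest with 48 read pairs over 150 kb and 10.2 times the expected number.

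The remaining lists were small. Of 7 long enough genes with many alternative first exons, which include clustered protocadherins, UGT1A10 and GNAS, none had an enclosed loop in either list, beside 6.39% and 19% of all genes long enough, and PCDHGA1 among them held 22 SMC1 and 24 CTCF peaks. Of 6 genes of cohesin and its regulators, 4 had loops labelled CTCF, beside 19% of all genes long enough: PDS5A held 6, NIPBL held 3, and CTCF and STAG1 held 1 each. STAG1 alone had a loop labelled SMC1, over 355 kb with 13 read pairs, and 6.39% of all genes long enough had one. WAPL, which releases cohesin from chromatin, and PDS5B held none.

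**Figure D5:**
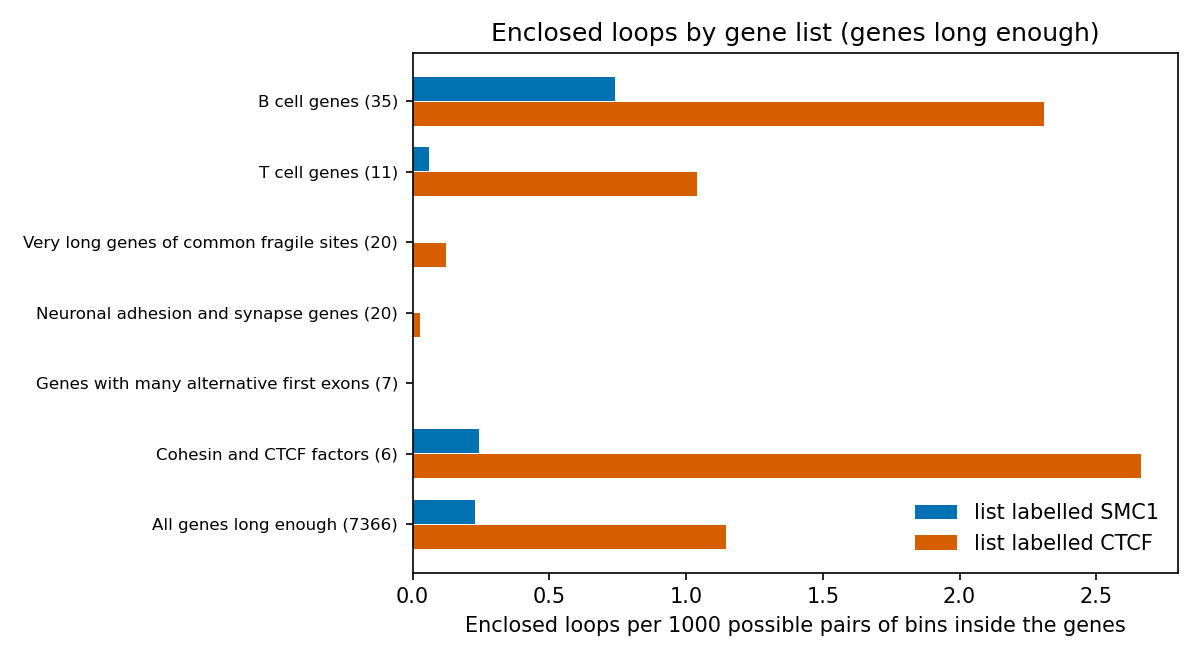
Enclosed loops per 1000 possible pairs of 5 kb bins inside the genes, for each gene list (number of genes long enough in brackets) and for all genes long enough, in the SMC1-labelled list (blue) and CTCF (orange), with 1 pooled list per label and hence no error bars. B cell genes stand at 0.740 and 2.31 and cohesin genes at 0.242 and 2.66, all genes at 0.229 and 1.15, and the very long fragile site and neuronal genes are near 0. The values are not matched for gene length, with which this density falls.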

How the data were processed

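SMC1 FA-EGS HiChIP and CTCF FA-HiChIP were each made from 2 biological replicates, which the authors pooled. Reads were aligned to hg38 with BWA-MEM (MapQ over 30, duplicates removed), peaks were called with MACS3 3.0.1 without input (extension 200 bp, q-value 0.01), and loops with MAPS on 5 kb bins with the peaks. The peak lists that the authors deposited hold the −log10 q-value and the fold enrichment, a ratio to local background. The loop lists hold raw counts of read pairs, deposited without normalization, and the expected counts of the MAPS regression. Of the deposited loop columns, the q-value and the −log10 P of a cluster were not used further. Loops, peaks and GENCODE 44 genes were intersected (at least 1 bp for a peak) with Python 3.11.15, NumPy 2.4.6, pandas 2.3.3, SciPy 1.17.1 and pysam 0.24.0, and figures were drawn with Matplotlib 3.10.9. No test was made, since each target has 1 list. For loops in several genes the shortest gene that is not a read-through gene was used. A start or exon was one of that gene. Other loops were those over 30 kb on the same chromosomes that no gene encloses, also weighted to 5 classes of span. The motif was learned by expectation maximization, and scripts were tested on simulated data. In each list the named genes are the 10 with the most loops, those of the 5 loops with the most read pairs and the 5 longest, the 5 longest genes with and without a loop, up to 5 with starts at both anchors, and members of the gene lists. PPCDC and ENTPD1, and listed genes without a loop, were named after their values were seen. Members and lists were chosen with earlier results of these data known.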

Additional observations from a re-analysis of the deposited data

How the results depend on the processing

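No paired analysis was possible because each target has 1 pooled list, and leaving out each replicate could not be run for the same reason. Of 60 alternative values, 14 stayed within the main interval (or within 1.5 times a count) and 46 moved, and none has a sign that could reverse. Values are given for the SMC1-labelled list and then CTCF. The share enclosed (5.88% and 10.04%) was 10.2% and 15.1% when anchors had only to overlap the gene, 5.26% and 9.09% over 50 kb, 6.50% and 10.7% over 15 kb, and 5.55% and 11.1% for loops with at least the median read pairs; labelled CTCF it was 9.73% without read-through genes and 10.3% on even-numbered autosomes. Genes labelled SMC1 (471) numbered 734 with overlapping anchors and 297 with the median read pairs. A start in exactly 1 anchor (32.5% and 28.1%) was 20.6% and 18.5% for protein-coding transcripts, 40.3% and 35.8% for any gene, 38.6% and 34.7% within 1 kb and 50.6% and 44.2% with overlapping anchors. SMC1 peaks in both anchors (71.9% and 73.8%) were 61.2% and 58.1% for peaks with −log10 q-values from 10, 60.99% and 61.3% by summit, and 71.9% labelled CTCF with the lists exchanged. CTCF peaks in both (56.6% and 38.3%) were 42.2% and 27.6%, 48.0% and 32.3%, and 38.3% and 56.6% in the same order. Without peaks at recognition sites, chosen after seeing the data, SMC1 gave 43.9% and 43.5% and CTCF 48.3% and 33.0%. Matches in the other list (95.6% and 40.9%) were 73.4% and 14.7% at the same bins and 89.3% and 31.1% within 5 kb. Convergent motifs (50.2% and 44.9%) were 69.5% and 68.3% at 13 bits, 63.5% and 60.7% near summits, 43.5% labelled CTCF at 5 bits, and 44.3% and 39.5% with the first version of the motif, learned from 50 bp on either side and replaced after seeing the data. The cause of these shifts was not tested beyond the construction of each alternative. Loops start at 12 read pairs, so weaker contacts are not seen, and replicate error is unknown.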
